A study of Mus musculus with 6 samples.

Results

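Very broad coding promoter peaks are stretches of open chromatin of at least 1800 bp at the start of a protein-coding gene. GL261 mouse glioma cells held 372 of them among 41308 ATACseq peaks (0.901%). Peaks of the 2 libraries of an oxygen level were intersected, shared stretches over 200 bp were kept, and those of the 3 levels were merged. A member had to hold a stretch from all 3 levels, to be at least 1800 bp wide and to lie within 2000 bp of a protein-coding transcription start site (TSS) of GENCODE M21. Peaks over divergent coding pairs, whose opposed TSSs lie within 1000 bp of each other, were left out. Width was therefore used to choose the members and is given as a description, without a test. Each peak carries the name of the coding gene whose TSS lies nearest its centre. The 372 peaks carry 371 gene names, since Rarg, a retinoic acid receptor, has 2.

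The libraries came from 1 glioma line, GL261 with stable pEGFP-N1, a GFP expression vector that all groups carried. Cells were kept in normoxia (21% O2) or held for 16 h at 1% O2 or <0.1% O2, with 2 libraries at each level. They were fixed with formaldehyde before lysis and cut with the Tn5 transposase, which inserts sequencing adapters into accessible DNA. Nothing in the labels ties the 2 libraries of a level to separate cultures, so p-values measure the spread between libraries, which may be technical. With 2 libraries against 2, an exact two-sided permutation test of a single value cannot go below 0.33, so changes were tested by limma across all peaks. Of 10 glial and glioma markers, 8 had a promoter peak at all 3 levels, Sox9 and Nfia being without one. Of 10 markers of immune, endothelial and neuronal cells, 2 had one (Csf1r and Syt1).

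Most mammalian promoters lie in CpG islands, stretches rich in C, G and the dinucleotide CpG, where nucleosomes are depleted around the TSS and the transposase cuts readily. The open stretch usually spans little more than the nucleosome-free region and its edges. Wider stretches can arise where a gene has several start sites, where an enhancer adjoins the promoter, or where a long CpG island stays unmethylated, as at many genes for developmental transcription factors. Cells adapt to low oxygen chiefly through the hypoxia-inducible factors, which activate genes of glycolysis and of growth restraint, and several histone demethylases need oxygen as a substrate.

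The reference sequence at 1 summit of each of 6 members with the largest falls and rises in accessibility (values below) is shown for its CpG content. For each, the 200 bases without an annotated exon nearest the summit of the library with the highest pileup were taken, and all 6 stretches hold that summit. They come from the RefSeq copy of GRCm38 and read 5′ to 3′ on the gene's strand, with CpG in capitals. Cul1 and Man1a2 had the largest falls at <0.1% O2. Olfm1, Lypla2 and Gm14137 were the 3 members that rose there, and Col27a1 rose at 1% O2. The Cul1 stretch (chr6:47454484-47454683, plus strand) lies in an intron 196 bp downstream of a TSS and holds 36 CpG. The Man1a2 stretch (chr3:100685643-100685842, minus strand) lies 240 bp upstream of the TSS, outside coding genes, and holds 35. The Olfm1 stretch (chr2:28204265-28204464, plus strand) lies in an intron, 1294 bp upstream of the nearest TSS, and holds 5. The Lypla2 stretch (chr4:135973583-135973782, minus strand) lies upstream of the TSS, outside coding genes, and holds 1. The Gm14137 stretch (chr2:119174084-119174283, plus strand) lies 325 bp upstream of the TSS, in an intron of a coding gene, and holds 0. The Col27a1 stretch (chr4:63216706-63216905, plus strand) lies in an intron 1371 bp downstream of the TSS and holds 6.
Cul1: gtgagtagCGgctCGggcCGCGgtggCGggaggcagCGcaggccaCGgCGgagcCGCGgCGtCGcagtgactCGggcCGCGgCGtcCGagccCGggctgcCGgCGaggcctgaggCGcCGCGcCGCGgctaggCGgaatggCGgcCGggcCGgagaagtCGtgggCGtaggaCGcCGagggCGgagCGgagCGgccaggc
Man1a2: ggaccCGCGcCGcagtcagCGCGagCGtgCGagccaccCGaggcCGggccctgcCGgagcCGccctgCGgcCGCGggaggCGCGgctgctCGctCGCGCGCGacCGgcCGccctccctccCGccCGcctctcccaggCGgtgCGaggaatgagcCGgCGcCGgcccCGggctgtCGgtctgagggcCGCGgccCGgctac
Olfm1: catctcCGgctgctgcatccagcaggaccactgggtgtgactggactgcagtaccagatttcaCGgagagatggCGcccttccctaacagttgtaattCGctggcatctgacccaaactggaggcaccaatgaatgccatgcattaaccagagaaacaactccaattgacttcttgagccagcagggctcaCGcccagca
Lypla2: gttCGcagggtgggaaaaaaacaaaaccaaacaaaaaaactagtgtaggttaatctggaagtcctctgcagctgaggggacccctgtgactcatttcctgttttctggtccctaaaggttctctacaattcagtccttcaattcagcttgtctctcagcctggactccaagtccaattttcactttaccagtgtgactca
Gm14137: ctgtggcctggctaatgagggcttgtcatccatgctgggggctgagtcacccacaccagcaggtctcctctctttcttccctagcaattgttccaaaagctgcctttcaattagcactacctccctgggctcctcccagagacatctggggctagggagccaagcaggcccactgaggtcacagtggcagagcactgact
Col27a1: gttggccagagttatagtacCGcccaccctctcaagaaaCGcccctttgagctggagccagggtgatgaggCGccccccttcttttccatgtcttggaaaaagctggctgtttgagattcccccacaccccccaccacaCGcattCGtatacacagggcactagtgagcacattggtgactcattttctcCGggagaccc
The stretch holds the summit of 1 library for Cul1, of 3 for Man1a2, Gm14137 and Col27a1, of 4 for Lypla2 and of 5 for Olfm1, so it does not describe the summits of the others. GC content was 80.5% and 82.5% for Cul1 and Man1a2 and 44.5% to 57.0% for the other 4. These 6 were picked by their changes, so the contrast in CpG describes them and no more.

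The libraries held 33006 and 36188 peaks in normoxia, 42807 and 41783 under 1% O2 and 43554 and 39348 under <0.1% O2. Genome coverage, as the lowest local background gives it, was 2.16 and 2.36 fragments per base at 21% O2 and 2.93 to 3.35 at low oxygen. The accessibility of a peak was taken as its summit pileup, the number of fragments over its highest base, recovered from the fold enrichment and p-value that the peak caller wrote. Each library was scaled so that the 28432 peaks present in all 6 libraries had a median ratio of 1 to their average, and all levels below are on this scale. All 372 members were among these peaks, as the rule requires a stretch shared by both libraries at every level. A promoter whose peak was missing at any level could therefore not be a member.

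Members had higher summits than the narrower coding promoters outside divergent pairs at every oxygen level, and the gap was smaller at low oxygen. The median scaled summit pileup of the 372 members was 172 and 177 fragments in normoxia, 148 and 139.7 under 1% O2, and 131 and 132 under <0.1% O2. For the 9954 narrower coding promoter peaks outside divergent pairs it was 123 and 127, 121 and 118, and 104 and 104. For the 891 divergent coding promoters it was 165 and 173, 150.1 and 148, and 129 and 128, so that the members did not lie above these at 1% O2. Over all 28432 peaks it stayed between 84.8 and 87.2, as the scaling fixes it. The medians at the 3 levels did not overlap in the members, nor did they in the narrower or the divergent promoters. As a fold over the local background the order was the other way in every library, with medians of 7.77 to 8.69 for members and 10.4 to 12.7 for narrower promoters. As a multiple of the median of all peaks, the members' median was 2.02 and 2.08 in normoxia, 1.69 and 1.61 under 1% O2, and 1.53 and 1.56 under <0.1% O2. Across coding promoter peaks outside divergent pairs, median pileup was 53.5 fragments under 500 bp, 138 at 900 to 1200 bp and 139 at 1500 to 1800 bp. It was 149 at 1800 to 2200 bp and 164 from 2200 bp. The part of the choice by width in the difference between members and narrower peaks was not tested.

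**Figure D1:**
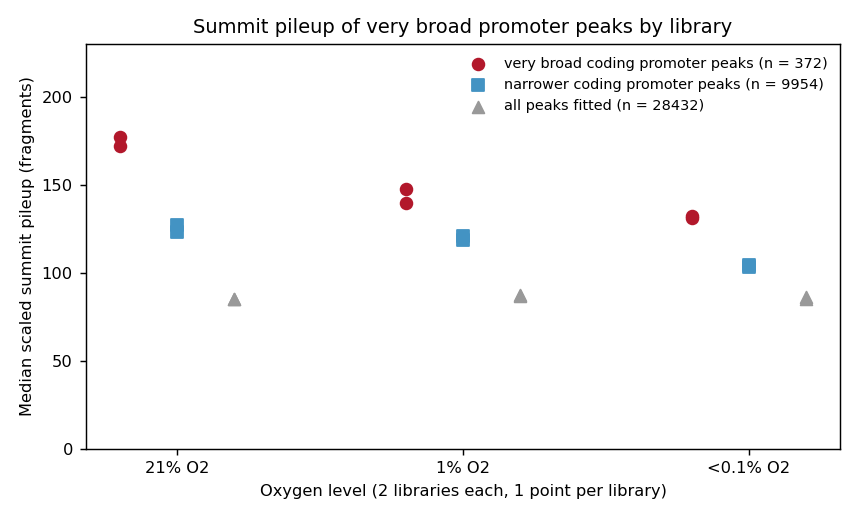
Median scaled summit pileup in fragments (y axis, from 0) at the 3 oxygen levels (x axis), 1 point per library, for the 372 very broad coding promoter peaks, the 9954 narrower coding promoter peaks and all 28432 peaks fitted. The members' points go from 172 and 177 at 21% O2 to 131 and 132 at <0.1% O2, while those of all peaks stay between 84.8 and 87.2.

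The members ranged from 1801 to 3556 bp in width, with a median of 2001.5 bp, against 975 bp for the narrower promoters. In the single libraries, the median length of a member covered by peaks was 1823 and 1837 bp in normoxia, 1907.5 and 1888.5 bp under 1% O2, and 1897 and 1874.5 bp under <0.1% O2. At 1% O2, 181 members (48.7%) were covered over a longer stretch in both libraries than in either normoxic library, and 67 (18.0%) over a shorter one. At <0.1% O2 these counts were 159 (42.7%) and 88 (23.7%). Of the narrower promoters, 40.9% were longer and 15.5% shorter at 1% O2, and 40.0% and 19.4% at <0.1% O2. Covered length also moves with the number of peaks called, which was larger at low oxygen, and its part in these widths was not tested. A single unbroken peak spanned the member in every library for 231 of the 372, and 102 were covered over at least 1800 bp in all 6 libraries.

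The base composition of the members was close to that of the narrower promoters. Their median GC content was 60.2%, against 60.6% for the narrower promoters, and their median CpG observed-to-expected ratio was 0.70 against 0.73. Of their bases, 35.6% lay outside coding genes, 41.7% in introns, 15.4% in untranslated exon sequence and 7.2% in coding sequence, against 34.2%, 38.0%, 19.3% and 8.55% for the narrower promoters. A coding TSS lay inside 351 of the 372 members (94.4%), and 172 (46.2%) held more than 1 coding TSS, against 41.0% of narrower peaks. A start site of a gene that is not protein-coding lay inside 84 (22.6%), against 11.7%. A longer stretch has more room for start sites, so these shares are not comparable per base. In the 351 members with a start of their named gene inside, the open stretch reached a median of 919 bp upstream of the first start and 868 bp downstream of the last, and the upstream side was the longer in 179.

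The summit of a member lay farther from a TSS than that of a narrower promoter and moved more between libraries. The median distance from the summit to the nearest coding TSS was 154 to 164 bp in the 4 libraries at 21% and 1% O2 and 213 and 218 bp in the libraries at <0.1% O2. In the narrower promoters it was 86 to 97 bp in all 6 libraries. The 6 summits of a member spanned more than 500 bp in 100 of 372 members (26.9%), against 4.73% of narrower promoters. Where the summits of a member differ, its pileup is read at different bases in different libraries, and a fall means only that the highest point anywhere in the stretch was lower. Of the members named here, Man1a2, Olfm1, Gm14137, Col27a1, Eapp, Alyref2, Tmc6, Ubtf, Bhlhe22, Zfp407, Zfp236, Foxf1, Runx2, Sema4c, Ncor1, Tubb6, Arid2, Gapdh and Cited2 were of this kind.

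Short motifs were counted in 300 bp centred on the median summit, on both strands, as a description. Where the summits of a member lie apart, this window can fall between them. The GC box GGGCGG, bound by SP and KLF factors, occurred in 68.0% of members and 68.7% of all 10326 coding promoter peaks outside divergent pairs. The CCAAT box (CCAAT, bound by NF-Y) occurred in 34.7% and 37.5%, and the TATA box TATAAA in 4.84% and 4.1%. CCGGAAG, the core bound by ETS factors, occurred in 9.95% of members and 17.1% of all these promoters. The AP-1 site TGANTCA occurred in 9.41% and 6.9%. ACGTG, the core of the hypoxia response element, occurred in 23.7% and 26.5%, and it also counts every E-box CACGTG, which occurred in 10.2% and 10.7%. The cAMP response element TGACGTCA occurred in 2.69% and 3.47%.

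The 5 widest members did not share a direction of change. Eapp, for an E2F-associated phosphoprotein, was the widest (3556 bp, chr12:54695468-54699023), and its scaled summit pileup was 373 and 409 in normoxia, 154 and 177 under 1% O2, and 210.5 and 221 under <0.1% O2. Alyref2, for an mRNA export adaptor (3348 bp, chr1:171500755-171504102), had 499 and 471 in normoxia, 202 and 208 under 1% O2, and 230.5 and 247 under <0.1% O2. Both were lower in all 4 hypoxic libraries than in either normoxic one, and the values at 1% O2 lay under those at <0.1% O2. Their summits lay far from the TSS, for Alyref2 1616 and 1729 bp upstream at 21% O2 and 581 to 631 bp upstream at low oxygen. The peaks had a low GC content for this group, 46.4% and 45.9%. Ssc5d, a secreted scavenger receptor (3120 bp), had 102 and 92.9 in normoxia, 70.2 and 65.4 under 1% O2, and 71.3 and 68.3 under <0.1% O2. Ppp2r3d, a regulatory subunit of protein phosphatase 2A (3085 bp), had 438 and 472 in normoxia, 332 and 346 under 1% O2, and 289.6 and 311 under <0.1% O2. Both were lower in every hypoxic library, but neither passed the minimum change at <0.1% O2 (log2 -0.48 ± 0.16, adjusted p = 0.0106, and log2 -0.598 ± 0.09, adjusted p = 2.16e-06, limma). Tmc6, a transmembrane channel-like protein (2945 bp), had 208 and 224 in normoxia, 215 and 205 under 1% O2, and 273 and 257 under <0.1% O2, with overlapping groups at 1% O2 and higher values at <0.1% O2 (log2 0.29 ± 0.10).

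At the width limit, the 3 narrowest members were Ubtf and Hist1h3e at 1801 bp and Creb5 at 1802 bp, and the 3 widest promoters that stayed outside were Arhgap23 at 1799 bp and Atf4 and Gadd45b at 1798 bp. Ubtf, which activates ribosomal RNA genes, had 123 and 88.6 in normoxia, 75.9 and 87.5 under 1% O2, and 64.4 and 51.7 under <0.1% O2. Hist1h3e, a histone H3 gene, had 215 and 228 in normoxia, 139 and 139.7 under 1% O2, and 149 and 126 under <0.1% O2. Creb5, a transcription factor of the CREB family, had 197 and 244 in normoxia, 278 and 298 under 1% O2, and 272 and 287 under <0.1% O2. Hist1h3e was lower and Creb5 higher in every hypoxic library than at 21% O2. For Ubtf, both libraries at 1% O2 lay under the lower normoxic one, 1 of them (87.5) just under it. Arhgap23, a GTPase-activating protein, had 208 and 185 in normoxia, 307 and 303 under 1% O2, and 282 and 298 under <0.1% O2. Atf4, the transcription factor of the integrated stress response, had 339 and 366 in normoxia, 261 and 277 under 1% O2, and 241 and 240.0 under <0.1% O2. Gadd45b, a stress-inducible gene, had 126 and 139 in normoxia, 172 and 169 under 1% O2, and 149.6 and 139.7 under <0.1% O2. Peaks on either side of the limit thus held both higher and lower values at low oxygen.

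At <0.1% O2, 98 of the 372 members (26.3%) fell and 3 rose relative to 21% O2, at an adjusted p under 0.05 over all 28432 peaks and a change of at least 0.6 on the log2 scale (a fall of 34.0% in pileup, limma). Among all peaks, 11.7% fell and 12.8% rose at this comparison. Among the 9954 narrower promoters 20.2% fell and 3.41% rose, and among 891 divergent coding promoters 25.9% and 1.57%. The median log2 change of the members was -0.34, with quartiles of -0.62 and -0.08, against -0.21 for narrower promoters and 0.0046 for all peaks. The remaining 271 members were not called, and 302 of the 372 had a negative fitted change.

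The 6 largest falls were at Cul1, Man1a2, Bhlhe22, Zfp407, Cobll1 and Zfp236. Cul1, the scaffold of the SCF ubiquitin ligases (chr6:47453567-47455394, 1828 bp), had a scaled summit pileup of 157 and 146 in normoxia, 79.9 and 67.2 under 1% O2, and 50.4 and 38.3 under <0.1% O2. Its fitted change at <0.1% O2 was log2 -1.78 ± 0.16 (adjusted p = 7.58e-11), a fall of 71%. Man1a2, a Golgi mannosidase that trims N-glycans (chr3:100684341-100686329), had 157 and 123 in normoxia, 77.5 and 71.6 under 1% O2, and 40.0 and 42.4 under <0.1% O2, a fall of 70.3% (adjusted p = 1.09e-10). Bhlhe22, a basic helix-loop-helix factor of neurons (chr3:18054107-18056102), had 117 and 127 in normoxia, 56.5 and 50.4 under 1% O2, and 39.1 and 35.2 under <0.1% O2, a fall of 69.6% (adjusted p = 6.18e-10). In these 3 the groups did not overlap, and the values at 1% O2 lay between those of the other levels. Cobll1, an actin-binding protein (chr2:65237334-65239554), had 193 and 225 in normoxia, 115 and 99 under 1% O2, and 79.2 and 73.5 under <0.1% O2 and fell by 63.4%. The zinc finger genes Zfp407 and Zfp236 fell by 65.6% and 63.2%. The 6 summits spanned 1421 bp at Bhlhe22, 1422 bp at Man1a2 and 1576 bp at Zfp236, but 127 bp at Cobll1. At Man1a2 only 1 library, at <0.1% O2, had its summit away from the other 5, which lay 195 to 443 bp upstream of the TSS.

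Only Olfm1, Lypla2 and Gm14137 rose at <0.1% O2. Olfm1, a secreted glycoprotein of the nervous system (chr2:28204265-28206090), had 25.2 and 23.5 in normoxia, 68.6 and 72.5 under 1% O2, and 65.2 and 62.1 under <0.1% O2, a 2.62-fold rise (adjusted p = 3.3e-07, limma). Its summit lay at the TSS in 1 normoxic library, which held 18 fragments there, and 1217 to 1316 bp upstream in the other 5 libraries. Lypla2, an acyl-protein thioesterase (chr4:135972388-135974425), had 69.9 and 96.1 in normoxia, 92.8 and 92.9 under 1% O2, and 142 and 144 under <0.1% O2, a 1.74-fold rise (adjusted p = 2.27e-05), with its summits upstream of the TSS in all 6 libraries, the nearest 908 bp from it. At 1% O2 its values lay within the normoxic range. Gm14137, a predicted gene (chr2:119172611-119174537), had 67.1 and 39.5 in normoxia, 88.8 and 76 under 1% O2, and 96.5 and 78.6 under <0.1% O2, a 1.69-fold rise (adjusted p = 0.00107). Its higher normoxic library lay closer to the lower library of each hypoxic level than to the other normoxic library.

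**Figure D2:**
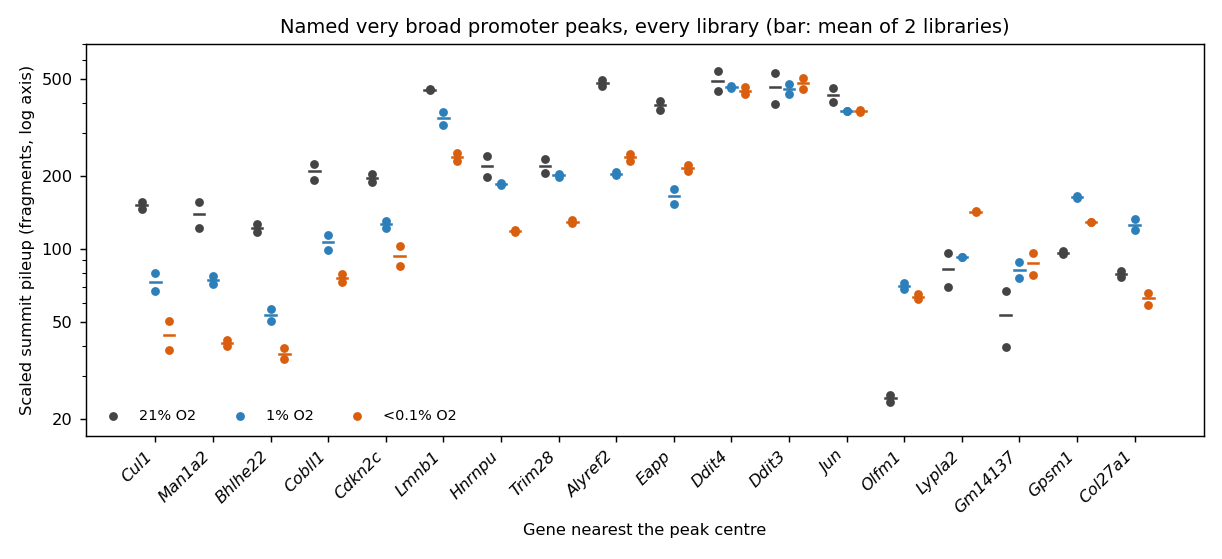
Scaled summit pileup in fragments (y axis, log scale) of 18 named very broad promoter peaks (x axis) in every library, with points for the 2 libraries of each oxygen level and a bar at their mean. Cul1 goes from 157 and 146 at 21% O2 to 50.4 and 38.3 at <0.1% O2, Ddit3 holds overlapping values at all levels, and Olfm1 goes from 25.2 and 23.5 to 65.2 and 62.1.

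At 1% O2, 56 members (15.1%) fell and 5 (1.34%) rose relative to the same normoxic libraries. Among all peaks 7.82% fell and 8.68% rose, and among narrower promoters 5.41% and 3.85%. The median log2 change of the members was -0.19, against -0.04 for the narrower promoters. The largest falls were at Alyref2 (log2 -1.24 ± 0.10, adjusted p = 2.53e-12), Eapp (log2 -1.24 ± 0.10, adjusted p = 1.42e-11) and Bhlhe22 (log2 -1.20 ± 0.17, adjusted p = 1.26e-06), in the limma fit. The peaks that rose were Olfm1, Gpsm1, Col27a1, Gm14137 and Slc6a9. Gpsm1, a modulator of G-protein signalling, had 95.1 and 98.2 in normoxia, 166 and 163 under 1% O2, and 129.6 and 129 under <0.1% O2, a 1.7-fold rise at 1% O2 (adjusted p = 6.42e-06). Col27a1, a fibrillar collagen, had 76.9 and 81.1 in normoxia, 133 and 119 under 1% O2, and 59.1 and 66.2 under <0.1% O2, so that its 1% O2 values lay above and its <0.1% O2 values below those at 21% O2. Slc6a9, a glycine transporter, rose by log2 0.62 ± 0.11.

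Both comparisons use the same 2 normoxic libraries, so their calls are not independent. The members that fell at both levels numbered 43, which is 43.9% of the 98 called at <0.1% O2 and 76.8% of the 56 called at 1% O2. The other 55 and 13 were called at 1 level only, and none was lower at one level and higher at the other. Olfm1 and Gm14137 were higher at both levels.

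**Figure D3:**
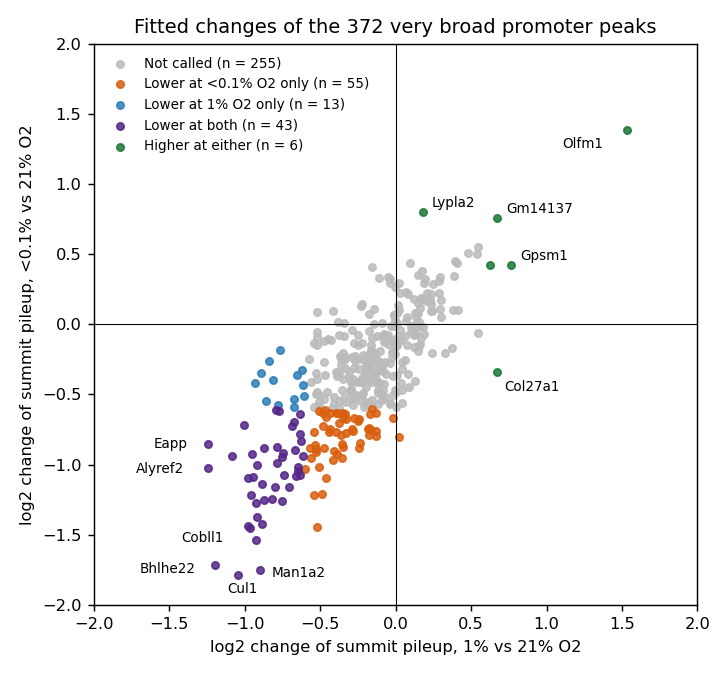
Fitted log2 change of summit pileup at <0.1% O2 (y axis) against that at 1% O2 (x axis), both relative to the same 21% O2 libraries, 1 point per very broad promoter peak (372 in all), coloured by call. The plot holds 43 peaks lower at both levels, 55 lower at <0.1% O2 only, 13 lower at 1% O2 only, 6 higher at either level and 255 not called.

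The counts depended on what stood for accessibility. With the fold over the local background, which for a broad peak includes its own fragments, 9 members were lower at <0.1% O2 and 1 at 1% O2, while 2.08% and 0.995% of all peaks were lower. The order of members and narrower promoters then turned, with 2.42% of members and 3.08% of narrower promoters lower at <0.1% O2 and 0.269% and 0.472% at 1% O2, and with medians at <0.1% O2 of -0.049 and -0.066. The medians at 1% O2 kept their order, with -0.073 for members and -0.0098 for narrower promoters, and the share there rests on 1 member. With the fold the change at <0.1% O2 turned positive for Eapp, Alyref2, Spred1, Trim28 and Ccne2, which were called lower by the pileup. It also turned positive for Ppp2r3d, Pax6, Klf16, Jun, Socs2, Hnrnpul1, U2af2, Top2b, Olig1 and Ddx39b, which were not. With scaling by genome coverage, which shifts the median of all peaks by -0.16 at <0.1% O2 and 0.13 at 1% O2 (log2), 152 and 37 members were lower and 2 and 9 higher, with 19.2% and 3.93% of all peaks lower. Subtracting the trend with GC content gave 63 members (16.9%) lower and 9 higher at <0.1% O2, against 11.7% of narrower promoters and 10.3% of all peaks, and 57 at 1% O2. Of the members named here, Ubtf, Foxf1, Foxl2, Runx2, Sema4c, Spred1, Ncor1, Trim28, Ccne2, Lmnb1, Tubb6 and Hnrnpu were then no longer called at <0.1% O2, with log2 changes of -0.60 to -0.27, and Gpsm1 (0.61) and Slc6a9 (0.72) were called higher. At 1% O2, Runx2 was no longer called (-0.59) and Sf3b4 was called lower (-0.60). Among the 272 members whose 6 summits lay within 500 bp, 66 (24.3%) were lower at <0.1% O2 and 29 (10.7%) at 1% O2. The members' median background, over genome coverage, was 6.59 and 7.74 in normoxia, 6.68 and 5.69 under 1% O2, and 5.15 and 4.59 under <0.1% O2.

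Across coding promoters, the median change at <0.1% O2 was more negative in each wider class of peaks up to 2200 bp. At <0.1% O2 the median log2 change was -0.08 in the 413 promoter peaks under 500 bp, -0.18 in the 2296 of 700 to 900 bp, -0.29 in the 1705 of 1200 to 1500 bp and -0.32 in the 687 of 1500 to 1800 bp. It was -0.35 in the 277 members under 2200 bp and -0.30 in the 95 members of 2200 bp or more. At 1% O2 it was 0.0084 under 500 bp, 0.06 at 500 to 700 bp and 0.0066 at 700 to 900 bp, and from there more negative in each wider class, with -0.13 at 1500 to 1800 bp, -0.19 at 1800 to 2200 bp and -0.21 from 2200 bp. The share of peaks lower at 1% O2 was 8.3% at 1500 to 1800 bp and 15.5% at 1800 to 2200 bp. Median summit pileup and GC content also changed with width, from 53.5 fragments and 55.4% under 500 bp to 139.0 fragments and 61.6% at 1500 to 1800 bp, and their part in the gradient was tested only for GC. With the GC trend subtracted, the median at <0.1% O2 was -0.014 under 500 bp, 0.024 at 500 to 700 bp, -0.034 at 700 to 900 bp, -0.09 at 1200 to 1500 bp, -0.12 at 1500 to 1800 bp, -0.22 at 1800 to 2200 bp and -0.17 from 2200 bp.

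**Figure D4:**
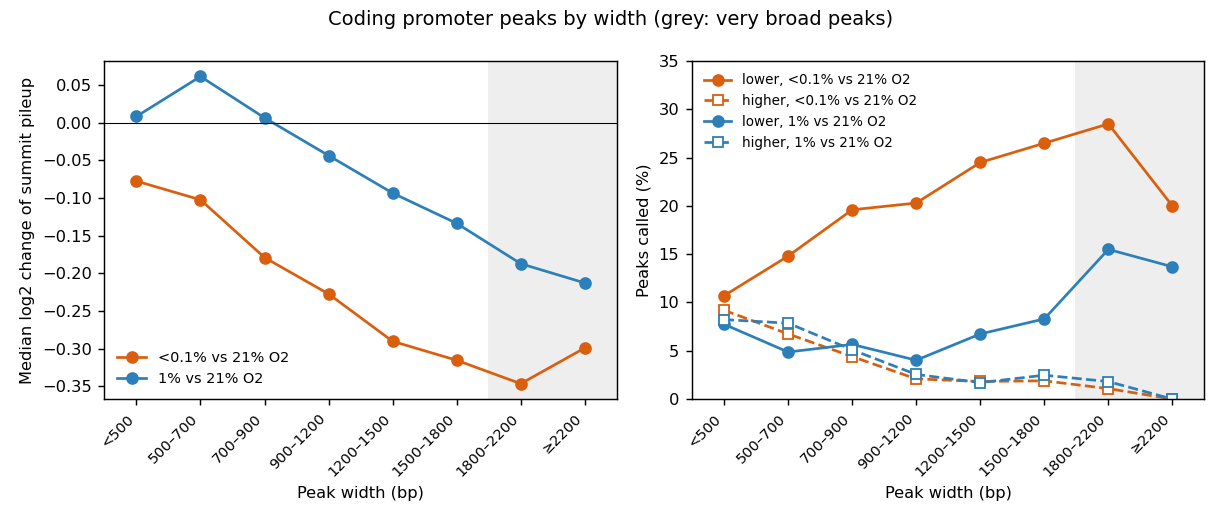
Coding promoter peaks by width in bp (x axis, 8 classes), with the median log2 change of summit pileup (left, y axis) and the percentage of peaks called lower or higher (right, y axis) at <0.1% O2 and 1% O2. The grey band marks the very broad peaks, whose medians at <0.1% O2 are -0.35 and -0.30 and whose share lower at 1% O2 is 15.5% and 13.7%.

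Broad peaks away from coding promoters differed from the members at <0.1% O2 in these values. The 276 peaks of at least 1800 bp that lay more than 2000 bp from any coding TSS had a median log2 change of -0.07 at <0.1% O2, where 33 (12%) fell and 13 (4.71%) rose, against 11.7% and 12.8% of all peaks. At 1% O2 their median was -0.23, with 35 (12.7%) lower and 6 higher, close to the values of the promoter members. These peaks include start sites of non-coding genes and were not tested against the members.

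Members that fell at <0.1% O2 were richer in CpG than those not called. The 98 lower members had a median CpG observed-to-expected ratio of 0.81 and a GC content of 62.8%, against 0.67 and 59.5% in the 271 members not called. The same held among narrower promoters, with 0.81 and 62.8% in the 2014 lower peaks against 0.71 and 60.3%. In the 300 bp around the summit, the lower members held a median of 31 CpG, and those not called 24. GGGCGG occurred in 81.6% of the lower members and 63.8% of those not called, CCAAT in 20.4% and 39.5%, and TATAAA in 1.02% and 6.27%. At 1% O2 the 56 lower members had a ratio of 0.76 and the 311 not called 0.69. These shares describe the members called, and the part of base composition was tested only through the GC trend above.

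**Figure D5:**
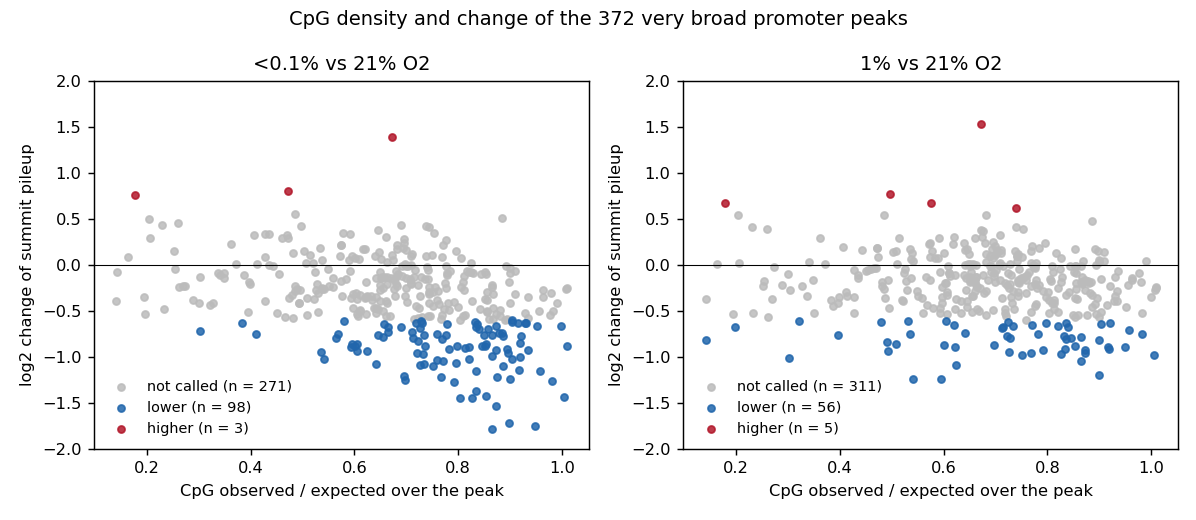
Log2 change of summit pileup (y axis) against the CpG observed-to-expected ratio over the whole peak (x axis) for the 372 very broad promoter peaks, at <0.1% O2 (left) and 1% O2 (right), coloured by call. At <0.1% O2 the 98 lower peaks have a median ratio of 0.81 and those not called 0.67.

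Of the 372 members, 76 carried a gene of 10 functional lists, and no member carried a marker of immune, endothelial or neuronal cells. Very broad peaks made up 3.6% of all 10326 coding promoter peaks. Their share was highest among homeobox and other developmental transcription factors, at 18 of 99 promoter peaks (18.2%), followed by immediate early and stress-inducible transcription factors, at 10 of 84 (11.9%). It was 7.98% among histone modifiers and chromatin remodellers, 7.09% among splicing factors and RNA helicases, 6.25% among glial and glioma identity genes and 6.06% among signalling genes. It was 4.76% for cytoskeleton, adhesion and matrix genes, 4.13% for cell cycle, replication and repair genes, 3.8% for hypoxia-inducible genes and 1.79%, or 2 of 112, for translation factors and ribosomal proteins. The lists were drawn up with earlier results of these data known, so the shares are descriptions. The counts of each list below stand against 26.3% of all members lower at <0.1% O2 and 15.1% at 1% O2. No listed member rose at either level in the limma fit, and at an unadjusted p under 0.05 the only positive change was that of Cdkn1a, an inhibitor of the cell cycle, at <0.1% O2 (log2 0.27 ± 0.13, adjusted p = 0.0853), which was named after its value was seen.

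Among the 18 developmental transcription factors, 6 fell at <0.1% O2 and 4 at 1% O2, where 26.3% and 15.1% of all members fell, and none rose. The median log2 change was -0.48 at <0.1% O2. Those that fell included Hmx2 (log2 -1.21 ± 0.13, adjusted p = 2.73e-09), Hoxd8 (log2 -1.14 ± 0.19), Foxl2, Runx2 and Foxf1. Hoxd8 and Hmx2 are homeobox factors, and Runx2 directs bone formation. The 3 with the highest pileup were Pax6, Six5 and Sox10. Pax6, a factor of eye and brain development, had 332 and 401 in normoxia, 317 and 321 under 1% O2, and 272 and 319 under <0.1% O2. Six5, a homeobox factor, had 219.6 and 219 in normoxia, 245 and 248 under 1% O2, and 230.5 and 271 under <0.1% O2. Sox10, a factor of the oligodendrocyte lineage and neural crest, had 253 and 258 in normoxia, 232 and 245 under 1% O2, and 202 and 182 under <0.1% O2. None of these 3 passed the call, with log2 changes at <0.1% O2 of -0.31, 0.19 and -0.42. Members of the list with low pileup (Hoxd8, Foxl2, Runx2 and Foxf1, with means of 51.4 to 65.3 fragments) were among those that fell.

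None of the 10 immediate early and stress-inducible transcription factors was called in either direction at <0.1% O2 or 1% O2 by limma, although 5 had a negative change at an unadjusted p under 0.05 at <0.1% O2 and 3 at 1% O2. Ddit3, which encodes the stress factor CHOP, had 397 and 534 in normoxia, 479 and 436 under 1% O2, and 458 and 509 under <0.1% O2. Klf16, a GC box-binding repressor, had 392 and 391 in normoxia, 446 and 394 under 1% O2, and 387 and 386 under <0.1% O2. Jun, a subunit of AP-1, had 403 and 461 in normoxia, 369.6 and 371 under 1% O2, and 366 and 376 under <0.1% O2, with its summit at the same base in all 6 libraries. In Ddit3 the groups overlapped, in Klf16 they lay within a few fragments of each other at <0.1% O2, and in Jun the values at low oxygen lay below those at 21% O2 without passing the test (adjusted p = 0.0511 at <0.1% O2, limma). The 10 log2 changes at <0.1% O2 ran from -0.45 (Gadd45a) to 0.22 (Maf), with a median of -0.20, and the absence of calls does not show that the promoters did not change.

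Of 8 signalling genes, Sema4c (log2 -0.73 ± 0.13) and Spred1 fell at <0.1% O2, Spred1 also at 1% O2, and none rose. Spred1, an inhibitor of Ras-ERK signalling, had 256 and 247 in normoxia, 173 and 151 under 1% O2, and 151 and 142 under <0.1% O2 (adjusted p = 4.76e-07, limma). Dusp7, an ERK phosphatase, had 131 and 139.8 in normoxia, 159 and 160.1 under 1% O2, and 140.0 and 161 under <0.1% O2, and Socs2, an inhibitor of cytokine signalling, had 143 and 146 in normoxia, 161 and 127 under 1% O2, and 130.5 and 132 under <0.1% O2. Dusp7 lay slightly higher and Socs2 slightly lower at <0.1% O2 than at 21% O2, and neither was called.

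Of 13 histone modifiers and remodellers, Arid2, Ncor1 and Trim28 fell at <0.1% O2, Arid2 also at 1% O2, and none rose, while 26.3% and 15.1% of all members fell. Arid2, a subunit of the PBAF remodelling complex, changed by log2 -1.26 ± 0.12 (adjusted p = 9.53e-11, limma), in a peak whose edge lies 278 bp from its TSS. Trim28, a corepressor of zinc finger proteins, had 206 and 235 in normoxia, 204 and 198 under 1% O2, and 131 and 128 under <0.1% O2, so that it was lower at <0.1% O2 (adjusted p = 7.19e-07), while its values at 1% O2 lay just under those at 21% O2. Kmt2e and Kmt2c, of the KMT2 family, had the highest pileup. Kmt2e had 372 and 466 in normoxia, 306 and 280.3 under 1% O2, and 297 and 261 under <0.1% O2, and its change at <0.1% O2 stayed just inside the minimum (log2 -0.58 ± 0.10). Kmt2c had 235 and 253 in normoxia, 222 and 213 under 1% O2, and 207 and 197 under <0.1% O2.

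Of 10 splicing factors and RNA helicases, 4 fell at <0.1% O2 and 1 at 1% O2, where 26.3% and 15.1% of all members fell, and none rose. The 4 were Hnrnpa0 (log2 -1.10 ± 0.12, adjusted p = 1.38e-09), Ddx3x, Hnrnpu and Sf3b4 (log2 -0.86 ± 0.16). Hnrnpu, a nuclear matrix RNA-binding protein, had 199 and 241 in normoxia, 187 and 183 under 1% O2, and 117 and 120.0 under <0.1% O2, and its 6 summits lay within 24 bp. Ddx3x, a DEAD-box helicase of translation, had 74.1 and 108 in normoxia, 50.0 and 56.6 under 1% O2, and 47 and 47.6 under <0.1% O2 and was the 1 member called at 1% O2. The highest peaks of the list were Ptbp1, a repressor of neuronal splicing, Hnrnpul1 and U2af2, which recognises the 3′ splice site. Ptbp1 had 409.8 and 464 in normoxia, 416 and 358 under 1% O2, and 457 and 460.4 under <0.1% O2 and was not called. Hnrnpul1 had 351 and 393 in normoxia, 332 and 294 under 1% O2, and 337 and 367 under <0.1% O2 and was not called. U2af2 had 270.0 and 286 in normoxia, 195 and 187 under 1% O2, and 184 and 186 under <0.1% O2, lower in every hypoxic library, with a change at <0.1% O2 of log2 -0.59 ± 0.10, short of the minimum. Srsf1, a serine-arginine splicing factor, had 119 and 141 in normoxia, 123 and 119 under 1% O2, and 92.2 and 85.9 under <0.1% O2, and Ddx39b, a helicase of mRNA export, had 136 and 139 in normoxia, 112 and 111 under 1% O2, and 99.2 and 98.3 under <0.1% O2. Both were lower at <0.1% O2, with adjusted p = 0.00103 and 0.00247, but short of the minimum change. The study named Alyref2, Hnrnpu, Srsf1, Ddx39b and Ddx3x among genes of RNA processing, chosen on the accessibility of these samples. Their peaks are therefore no independent evidence of the list's direction. By qPCR the study separately reported lower mRNA of splicing factors in hypoxia, with primers listed for Srsf1, Alyref2 and Hnrnpu. From read counts over peaks, it reported reduced promoter accessibility at Srsf1, Ddx39b and Ddx3x. By the summit pileup used here, Srsf1 and Ddx39b were not called, so the results differ for these genes. The cause of that difference was not tested.

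Of the 2 translation genes, Eif4e, the cap-binding initiation factor, fell at <0.1% O2 with 180.4 and 158 in normoxia, 111 and 124 under 1% O2, and 89.6 and 90.0 under <0.1% O2 (adjusted p = 4.21e-07, limma). Eif4ebp1, which encodes the inhibitor of that factor, had 193 and 188 in normoxia, 153 and 145 under 1% O2, and 130.5 and 145 under <0.1% O2 (log2 -0.47 ± 0.11 at <0.1% O2). Of 5 cell cycle and replication genes, Ccne2 and Cdkn2c fell at <0.1% O2. Ccne2, a cyclin of S-phase entry, had 270.0 and 278 in normoxia, 225 and 210.5 under 1% O2, and 165 and 154 under <0.1% O2. Cdkn2c, an inhibitor of the cyclin-dependent kinases, had 189 and 204 in normoxia, 131 and 122 under 1% O2, and 103 and 84.8 under <0.1% O2 and also fell at 1% O2. Top2b, a DNA topoisomerase, had 277 and 327 in normoxia, 261 and 282 under 1% O2, and 252 and 237 under <0.1% O2 and was not called.

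The 3 hypoxia-inducible genes of the list with a very broad promoter peak were lower in value at <0.1% O2, and 1 passed the test. Ddit4, which encodes an inhibitor of mTORC1, had 446 and 541 in normoxia, 469 and 462 under 1% O2, and 464 and 437 under <0.1% O2, and its values at both low levels lay within the normoxic range or just under it. Gapdh, the glycolytic enzyme, had 263 and 299.9 in normoxia, 195 and 228 under 1% O2, and 190.5 and 203 under <0.1% O2, lower in every hypoxic library, with log2 -0.51 ± 0.11 at <0.1% O2, short of the minimum. Cited2, a target and inhibitor of hypoxia-inducible factors, had 215 and 235 in normoxia, 190.4 and 179.5 under 1% O2, and 130.5 and 134 under <0.1% O2 and fell at <0.1% O2 (adjusted p = 6.1e-07, limma). Ndufa4l2, a mitochondrial protein induced by hypoxia that the list does not hold, was named after its values were seen. Its summit lay 1958 to 1963 bp upstream of the nearest coding TSS in all 6 libraries. It had 152 and 145 in normoxia, 168 and 171 under 1% O2, and 186 and 179 under <0.1% O2, and its change at <0.1% O2 (log2 0.29 ± 0.11, adjusted p = 0.0277) was short of the minimum. No RNA was measured in these libraries.

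Among glial and glioma identity genes, Olig1, of the oligodendrocyte lineage, had 139.9 and 139 in normoxia, 119 and 136 under 1% O2, and 122 and 115 under <0.1% O2 and was not called, nor was Sox10. Of 5 cytoskeletal and matrix genes, Lmnb1 and Tubb6 fell at <0.1% O2 and Tubb6 also at 1% O2. Lmnb1, a lamin of the nuclear envelope, had 453 and 455 in normoxia, 369 and 325 under 1% O2, and 230.5 and 249 under <0.1% O2, with 6 summits within 38 bp (adjusted p = 1.08e-09, limma). Tubb6, a beta-tubulin, had 352 and 373 in normoxia, 233 and 218 under 1% O2, and 218 and 219 under <0.1% O2, and Tubb2b, a neuronal beta-tubulin, had 241 and 238 in normoxia, 189 and 184 under 1% O2, and 209 and 196 under <0.1% O2. Tubb2b was lower in every hypoxic library but was not called at <0.1% O2 (log2 -0.24 ± 0.10).

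Between the 2 hypoxic levels, 17 members (4.57%) were lower and 2 (0.538%) higher at <0.1% O2 than at 1% O2, while 3.27% of all peaks were lower and 5.23% higher. The median log2 difference of the members was -0.14, against -0.17 for narrower promoters, of which 6.39% were lower. The members' median turned positive with the GC trend subtracted (0.040) and with the fold over the local background (0.016). Col27a1 had the largest difference (log2 -1.01 ± 0.15, adjusted p = 6.99e-06), followed by Zfp236, Man1a2 and Efr3a, and the 2 that were higher were Lypla2 and Gm9837 (limma). Efr3a, a membrane anchor of a lipid kinase, changed by log2 0.02 ± 0.11 at 1% O2 and -0.80 ± 0.11 at <0.1% O2. With the GC trend subtracted, 5 members (1.34%) and 1.42% of all peaks were lower at <0.1% O2 than at 1% O2. With scaling by genome coverage, 107 members (28.8%) were lower and none higher, against 32.8% of narrower promoters and 18.2% of all peaks lower.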

How the data were processed

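Chromatin accessibility was measured by ATACseq in GL261 cells at 21%, 1% and <0.1% O2, in 2 libraries each. Per the labels and the study's methods, the authors trimmed reads with Trimmomatic, aligned them to mm10 with Bowtie2 2.2.5, removed duplicates with Picard and called peaks in each library with MACS2 2.1.1.2. The deposited peak lists give, at each summit, the fold enrichment (a ratio of pileup to local background) and the p-value and q-value as −log10, and the summit offset. From fold and −log10 p, the whole-number pileup was recovered for 100% of peaks in every library, within 0.01 in −log10 p. Counts over whole peaks were not used here.

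Consensus peaks, widths and TSSs (GENCODE M21 basic) gave the 372 members by the rule in the report. Log2 pileup of 28432 peaks in all 6 libraries, scaled by the median ratio, was fitted with limma 3.58.1 (trended prior, 3 residual and 34.5 prior degrees of freedom, no pseudocount), with Benjamini-Hochberg adjustment over all peaks and the thresholds of 0.05 and 0.6 (log2). The fit was tested on simulated data. No chromosome of 21 ran past the end of the GRCm38 reference. Members and gene lists were chosen with earlier results of these data known. Named members are the 5 widest, the 3 on each side of the width limit, the 6 largest called falls and rises at <0.1% O2 and 3 at 1% O2, the 3 highest pileups of each list, all hypoxia-inducible genes, and genes the study named. Other members called between <0.1% and 1% O2, and Slc6a9 and further called members of the lists, were named after their values were seen. Alternatives were the fold, other scalings and filters, other widths, windows and overlaps, each library left out, a replicate block and a GC trend. Some named members are not reported here.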

Additional observations from a re-analysis of the deposited data

Results flagged for a closer look

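The changes at the 2 hypoxic levels differed in 19 members by the test of the difference itself, the limma fit of <0.1% against 1% O2 with an adjusted p under 0.05 over all 28432 peaks and a difference of at least 0.6 (log2). The normoxic levels cancel in this difference, but the scaling and the spread behind its p-values come from all 6 libraries. The values given are log2 differences, <0.1% minus 1% O2. The 17 lower members were Col27a1 (-1.01), Zfp236 (-0.92), Man1a2 (-0.85), Efr3a (-0.83), Cul1 (-0.74), Hmx2 (-0.72), Lsm14a (-0.68), Tmem268 (-0.66), Bri3 (-0.65). They also included Hnrnpu (-0.64), Hnrnpa0 (-0.64), Trim28 (-0.63), Cab39 (-0.61), Oxr1 (-0.61), Zfp407 (-0.61), Nxn (-0.61) and Gnptab (-0.60). The 2 higher members were Gm9837 (0.61) and Lypla2 (0.62). Col27a1 was called higher at 1% O2 (0.67) and was not called at <0.1% O2 (-0.34). The fitted changes from 21% O2 also had opposite signs at the 2 levels for Nxn, Gm9837, Efr3a and Gnptab, in each case with 1 of them within 0.09 of 0. Groups of 2 libraries are too small for a test of single outlying libraries.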

How the results depend on the processing

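The direction of both medians against 21% O2 held in all alternatives, while the median between the hypoxic levels turned positive with the fold and the GC trend, and counts of called members changed with the value and the scaling used. With the fold over the local background, 9 and 1 members were lower and higher at <0.1% O2, 1 and 0 at 1% O2, and 0 and 0 between <0.1% and 1% O2, and the medians were -0.049 and -0.073. Among members called by the pileup, the fold also changed the sign of Eapp (0.47 at <0.1% O2 and 0.29 at 1% O2), Alyref2 (0.49 and 0.34), Spred1 (0.068 and 0.030), Trim28 (0.079 at <0.1% O2) and Ccne2 (0.030 at <0.1% O2). Of the named members not called at <0.1% O2, 10 changed sign there, Ppp2r3d (0.029) and U2af2 (0.082) among them. With scaling by genome coverage, 152 were lower at <0.1% O2, 37 lower and 9 higher at 1% O2, and 107 lower and 0 higher between the hypoxic levels, with medians of -0.51 and -0.053. Quantile normalization gave a median of -0.29 at <0.1% O2 and 1 member higher at <0.1% than at 1% O2. With the GC trend subtracted, with or without the replicate block, 63 were lower and 9 higher at <0.1% O2, 5 were lower between the hypoxic levels, and the median at <0.1% O2 was -0.21. Ubtf (-0.86 to -0.30), Lmnb1 (-0.92 to -0.57) and Hnrnpu (-0.88 to -0.60) were among the members that lost their call. Without a minimum change, 204 were lower and 22 higher at <0.1% O2, 138 and 16 at 1% O2, and 86 and 31 between the hypoxic levels. These are 54.8% and 5.91%, 37.1% and 4.3%, and 23.1% and 8.33% of members, against 23.9% and 23.8%, 18.5% and 17.9%, and 11.5% and 12.4% of all peaks, and 23.6% of narrower promoters were lower between the hypoxic levels. By a move of at least 10 percentile ranks, 138 (37.1%) were lower and 13 (3.49%) higher at <0.1% O2, and 91 (24.5%) and 13 (3.49%) at 1% O2. Between the hypoxic levels, 80 (21.5%) were lower and 14 (3.76%) higher by this rule. Its share over all peaks was not computed, so these counts cannot be set against them.

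A width limit of 1500 bp made 2.56% of all peaks members, against 0.901% at 1800 bp. Of the members at 1500 bp, 280 (26.4%) were lower and 16 (1.51%) higher at <0.1% O2, and 113 (10.7%) and 22 (2.08%) at 1% O2. Between the hypoxic levels, 66 (6.23%) of them were lower. At 1800 bp the shares lower in these comparisons were 26.3%, 15.1% and 4.57%. A limit of 2200 bp gave 95 members (0.23% of all peaks), of which 19 were lower and 0 higher at <0.1% O2, 13 and 0 at 1% O2, and 0 and 0 between the hypoxic levels, with a median of -0.30 at <0.1% O2. Among the 272 members with summits within 500 bp, an alternative chosen after the data were seen, 1 was higher at <0.1% O2, and 29 were lower and 2 higher at 1% O2. With each library left out in turn, lower and higher counts were 98 to 110 and 2 to 4 at <0.1% O2, 49 to 68 and 3 to 6 at 1% O2, and 13 to 25 and 2 to 5 between the hypoxic levels. The medians were -0.36 to -0.32 and -0.23 to -0.18, and the rule found 420 to 499 members (0.978% to 1.09% of all peaks). Without 21% O2 replicate 2, 3 were higher at 1% O2, and without 1% O2 replicate 1 or 2, 5 or 4 were higher between the hypoxic levels. Replicate numbers did not pair the samples (correlation of replicate differences between levels 0.0079, -0.013 and -0.051), and the replicate block gave the same counts of 98 and 3, 56 and 5, and 17 and 2. The causes of these differences were not tested. Depth limits members with few fragments, such as Olfm1 with 18 and 22 at 21% O2.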

Other observations

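Replication-dependent histone genes, whose short intronless genes supply histones during DNA replication, carried 5 of the very broad promoter peaks: Hist1h3e, Hist1h4a, Hist2h2bb, Hist2h4 and Hist4h4. They were picked out after their values were seen, so no test is drawn from them. In the limma fit, 4 fell at <0.1% O2 and 4 at 1% O2, where 26.3% and 15.1% of all members fell, with log2 changes of -0.94 to -0.50 and -1.08 to -0.53. Hist4h4, a histone H4 gene, had the largest change at 1% O2 among them (-1.08, adjusted p = 1.29e-10), and Hist1h4a, also a histone H4 gene, was not called at either level (-0.50 at <0.1% O2 and -0.53 at 1% O2). Reads that map equally well to near-identical histone copies were removed by the authors, so the levels of these genes are uncertain. Their GC content was 47.4% to 54.4%, against a median of 60.2% for all members.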
